A study of Mus musculus with 36 samples.

Results

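The genes of cholesterol synthesis and sterol regulation were followed through osteoclast differentiation in culture. They are 27 genes taken by name from the 24950 genes of the expression table. Among them are 18 enzymes that build cholesterol from acetyl-CoA and 5 genes that encode or control the SREBP transcription factors. The others are the sterol carrier Stard4 and 3 targets of the liver X receptors (LXR). RNA was sequenced from cultures of C57BL/6 mice carrying 4 labelled genotypes of Irf8, a transcription factor of the myeloid lineage, with the tissue labelled bone marrow-derived monocytes. Day 0 cells (labelled BMMs) had received the growth factor M-CSF, while M-CSF at 20 ng/ml was joined by RANKL, which drives osteoclast formation, at 40 ng/ml in the pre-osteoclasts of day 3 and the mature osteoclasts, or bone-resorbing cells, of day 6. The genotypes are Irf8 gKO and its wild type gWT, and Irf8 cKO and its wild type cWT. What the prefixes g and c stand for is not spelled out in the labels, nor are the promoter of any Cre, the age of the mice or any pooling of animals. Each of the 12 groups of genotype and day had 3 libraries, but no label ties them to separate mice or cultures. P-values therefore measure the spread between these libraries alone, which may be technical.

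Irf8 itself did not follow the knockout label in every group. Its mean was 57.4 RPKM (reads scaled to gene length and library size) in gKO and 63.6 in gWT at day 0, 13.4 in gKO and 5.46 in gWT at day 3, and 4.97 in gKO and 5.58 in gWT at day 6. In the c genotypes it was 209.95 RPKM in cKO and 58.996 in cWT at day 0, 65.4 in cKO and 6.42 in cWT at day 3, and 11.2 in cKO and 26.3 in cWT at day 6. Reads from outside a deleted stretch would still count here, and no source used here names the deleted stretch, so gKO, gWT, cKO and cWT below mean the libraries labelled so. All libraries of the g genotypes expressed Y-linked genes and all those of the c genotypes expressed Xist, so g and c libraries also differ in sex. Library names begin with the letter s, t or u, and per the file header the table joins 3 data sets and holds a corrected annotation of cKO and cWT at day 6. All g libraries carry the letter u. At days 0 and 3 the cKO libraries carry t and the cWT libraries s, so there the genotype and the letter cannot be told apart. At day 6 the cKO libraries carry s, while cWT replicates 1 and 2 carry t and replicate 3 carries s. Total alignments ran from 34510144 to 92548145 per library (median 46799532).

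Cells make cholesterol from acetyl-CoA through mevalonate, farnesyl diphosphate, squalene and lanosterol. When sterols in the endoplasmic reticulum run low, the escort protein SCAP carries the precursors of the SREBP factors to the Golgi, where they are cut and released to switch on these enzymes; when sterols are plentiful, the INSIG proteins hold SCAP back. The LXR receptors are activated by oxysterols and switch on sterol exporters. The pathway is known in osteoclasts because farnesyl diphosphate synthase, the product of Fdps, is the target of the nitrogen-containing bisphosphonate drugs.

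Promoter sequences are shown for 3 genes of the SREBP pathway and for the LXR target Abca1, because synthesis genes and LXR targets had opposite directions in several of the comparisons. The windows come from the RefSeq promoter table of build GRCm38.p6, which is not the mm9 build of the expression files, and each runs over the 250 bases before the start of the gene. Insig1 lies at chr5:28071162-28071411 on the plus strand, Cyp51 at chr5:4104698-4104947 on the minus strand, Idi1 at chr13:8885356-8885605 on the plus strand and Abca1 at chr4:53159896-53160145 on the minus strand. Capitals mark CCAAT or its reverse complement ATTGG, the box bound by NF-Y, a partner of SREBP; the Abca1 window holds neither.
Insig1: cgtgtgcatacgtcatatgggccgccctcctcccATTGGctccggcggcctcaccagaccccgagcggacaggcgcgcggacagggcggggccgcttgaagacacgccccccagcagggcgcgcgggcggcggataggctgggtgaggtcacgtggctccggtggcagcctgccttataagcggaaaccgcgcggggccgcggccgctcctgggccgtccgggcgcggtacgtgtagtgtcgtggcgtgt
Cyp51: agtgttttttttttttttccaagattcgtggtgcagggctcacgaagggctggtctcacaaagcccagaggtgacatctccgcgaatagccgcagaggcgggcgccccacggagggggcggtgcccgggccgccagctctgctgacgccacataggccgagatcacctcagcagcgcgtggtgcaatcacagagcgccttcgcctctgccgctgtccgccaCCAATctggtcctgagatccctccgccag
Idi1: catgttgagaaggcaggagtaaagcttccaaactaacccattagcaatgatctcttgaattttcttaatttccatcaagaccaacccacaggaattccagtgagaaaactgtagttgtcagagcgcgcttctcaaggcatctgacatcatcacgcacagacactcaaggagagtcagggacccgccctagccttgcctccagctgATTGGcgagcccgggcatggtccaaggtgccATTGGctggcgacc
Abca1: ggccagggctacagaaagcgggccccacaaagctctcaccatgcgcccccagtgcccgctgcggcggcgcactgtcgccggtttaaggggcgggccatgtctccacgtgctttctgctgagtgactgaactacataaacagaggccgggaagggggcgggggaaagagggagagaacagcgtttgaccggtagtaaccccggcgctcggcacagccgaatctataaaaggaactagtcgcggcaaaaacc
RefSeq windows of 300 bases (250 before and 50 after the start) were matched by symbol for 22 of the 27 genes, 30 windows in all. CCAAT or ATTGG occurred in 20 of the 30 windows (66.7%), against 37.4% of all 32851 windows. The sterol element TCACNCCAC, on either strand, occurred in 1 of the 30 windows, that of Hmgcs1, as TCACCCCAC 137 bases before the start on chromosome 13, against 1.24% of all windows. The LXR element named DR4, searched as a fixed pattern on either strand, matched 0 of the 30 windows and 0.231% of all. A site that departs from the searched letters was not counted. The 0 therefore does not show that the Abca1 window, or any other, lacks an LXR element. One more motif, written after the Abca1 window had been read, was also searched and is not reported. A match is a run of letters and not a site shown to be bound.

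Hmgcs1, the synthase that makes HMG-CoA, was listed at 0 in all 36 libraries, as were 1820 genes in all, and no change is given for it. A listed 0 alone does not show that the gene was silent, and its cause was not tested. The other 26 genes were at 1 RPKM or above in every library, so none of them entered the tests only through a group where it was high. RPKM divides by gene length, so levels can be set side by side. Fdps (25.03 to 91.2 RPKM by group mean) and the methylsterol oxidase Msmo1 (27.8 to 66.3 RPKM) stood among the highest enzymes. The keto-steroid reductase Hsd17b7 (1.76 to 5.81 RPKM), the sterol reductase Tm7sf2 (2.52 to 7.998 RPKM) and lanosterol synthase Lss (2.39 to 6.28 RPKM) stood among the lowest. The cWT day 0 group held the highest group mean for 18 of the 26 tested genes and for 14 of the 17 tested enzymes, and the cWT day 3 group the lowest for 9 of the 26.

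**Figure D1:**
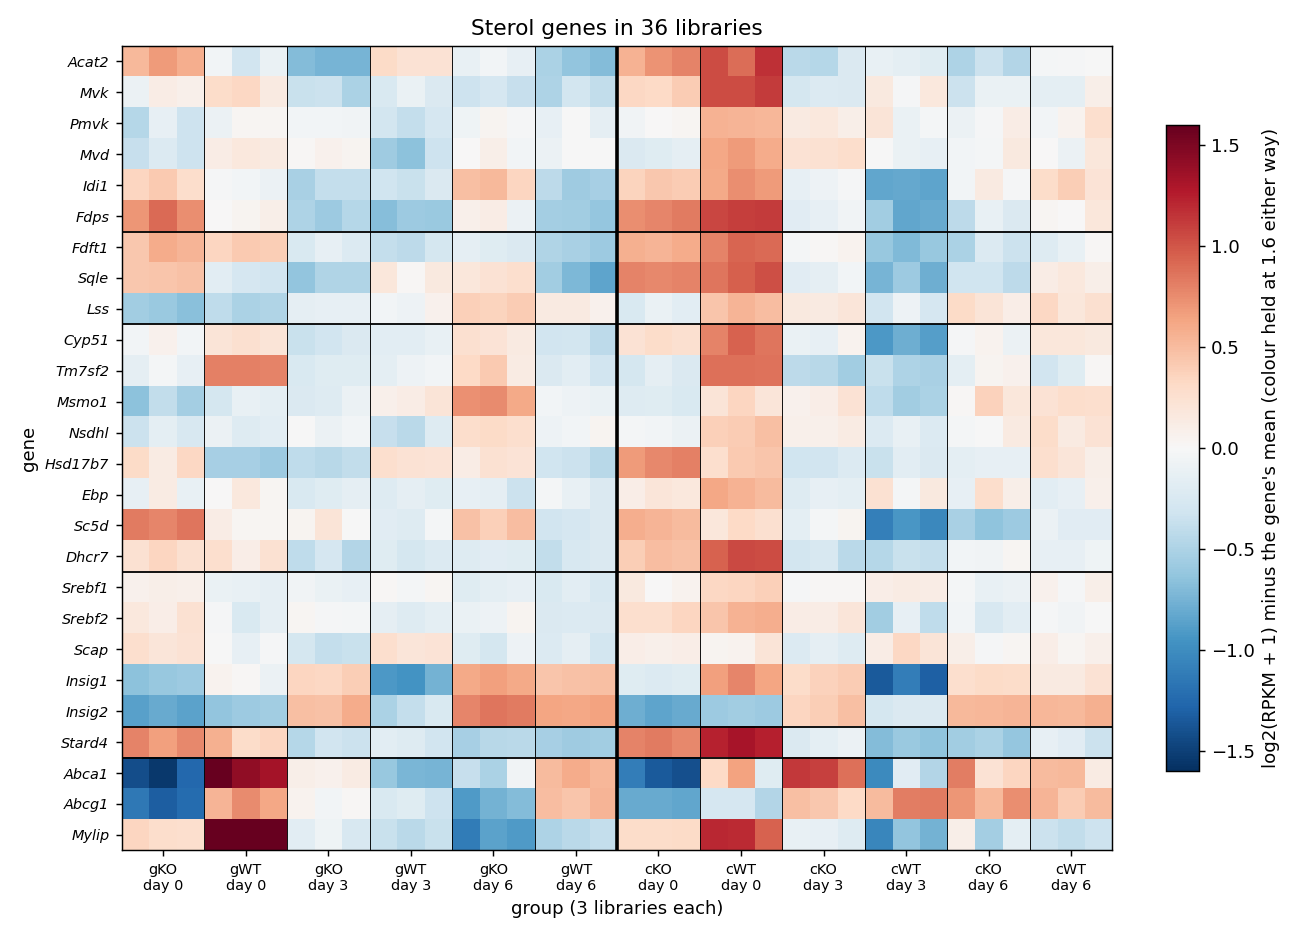
Level of each of the 26 tested sterol genes in 36 libraries, as log2(RPKM + 1) minus the gene's mean over all libraries (colour scale held at 1.6 either way). Columns are libraries in groups of 3 by genotype and day; rows are ordered by step, with lines between enzymes to farnesyl diphosphate, squalene to lanosterol, lanosterol to cholesterol, SREBP control, Stard4 and LXR targets. The cWT day 0 columns are the reddest for most enzymes. Abca1 is bluest in gKO and cKO at day 0, and Abcg1 in gKO at day 0.

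The first question was how the genes moved in the first 3 days of RANKL in each genotype. Levels were compared on the scale log2(RPKM + 1) with limma, and a gene is called at a Benjamini-Hochberg adjusted p under 0.05 over all 11863 tested genes, and each log2 change carries its limma standard error. So many genes of the genome changed that a call alone says little, and each count stands beside the share of all tested genes called in the same direction.

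In cWT all 17 tested enzymes fell between day 0 and day 3. Of the 26 genes 2 rose, against 39.8% of all tested genes, and 23 fell, against 38.9%. The median log2 change of the 17 enzymes was -1.19, beside 0.01 over all genes. Insig1, which holds back SREBP processing and is itself a known SREBP target, had 13.01, 15.6 and 13.4 RPKM in the 3 day 3 libraries, against 55.1, 60.3 and 54.1 at day 0 (log2 change -1.94 ± 0.05, limma adjusted p = 3.84e-23). Every day 3 library was below every day 0 library. Stard4, which moves cholesterol between membranes, had 3.20, 3.51 and 3.34 RPKM at day 3, against 14.9, 15.98 and 15.1 at day 0 (log2 change -1.91 ± 0.06). Fdps had 28.3, 23.2 and 23.6 RPKM at day 3, against 89.5, 91.6 and 92.5 at day 0 (log2 change -1.83 ± 0.07). The groups did not overlap for either gene. The lanosterol demethylase Cyp51 had 5.63, 6.25 and 5.76 RPKM at day 3, against 20.6, 22.9 and 21.6 at day 0 (log2 change -1.72 ± 0.05). Squalene epoxidase Sqle, a controlled step of the pathway, had 9.24, 10.5 and 8.97 RPKM at day 3, against 30.01, 32.2 and 34.1 at day 0 (log2 change -1.65 ± 0.06). Again the groups did not overlap. Of the LXR targets Mylip, a ubiquitin ligase that marks lipoprotein receptors for breakdown, had 2.19, 3.26 and 2.89 RPKM at day 3, against 14.2, 14.1 and 11.7 at day 0 (log2 change -1.93 ± 0.10). Abca1, a sterol exporter, fell as well (-0.81 ± 0.18), with 3.53, 7.07 and 5.63 RPKM at day 3, against 10.5, 13.4 and 6.99 at day 0, and its groups overlapped. The genes that rose were Insig2, with a log2 change of 0.32, and the exporter Abcg1, with 14.2, 17.9 and 18.03 RPKM at day 3, against 7.88, 7.88 and 6.75 at day 0 (1.05 ± 0.08). Scap, the escort of SREBP, did not pass the test (0.11, limma adjusted p = 0.0581).

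In gWT the same step lowered 12 of the 17 enzymes and raised 5. Of the 26 genes 8 rose, against 48.4% of all tested genes, and 17 fell, against 35.0%. Quantile scaling of the libraries gave 5 rises and 18 falls, beside 5018 and 4830 of all 11863 tested genes. The median of the 17 enzymes was -0.25, beside 0.13 over all genes. All 3 LXR targets fell. The exporter Abca1 had 5.03, 4.54 and 4.46 RPKM at day 3, against 27.9, 23.5 and 22.1 at day 0 (log2 change -2.16 ± 0.18, limma adjusted p = 4.62e-12). Mylip had 4.16, 3.90 and 4.14 RPKM at day 3, against 20.6, 20.3 and 22.3 at day 0 (-2.12 ± 0.10). Neither gene's groups overlapped. Abcg1 had 8.08, 8.40 and 7.54 RPKM at day 3, against 14.6, 17.02 and 15.5 at day 0 (-0.89 ± 0.08), and Insig1 had 17.9, 17.4 and 20.2, against 36.3, 35.3 and 32.5 (-0.87 ± 0.05). Tm7sf2 had 3.40, 3.61 and 3.73 RPKM at day 3, against 7.53, 7.52 and 7.45 at day 0 (-0.89 ± 0.07). The 5 enzymes that rose were Hsd17b7 (0.79), Lss (0.45), Acat2, the acetyltransferase that joins acetyl-CoA units (0.42), Sqle (0.37) and Msmo1 (0.32).

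In gKO the LXR exporters and the INSIG genes rose, and the enzymes fell about as often as all genes did. Of the 17 enzymes 10 fell and 5 rose. Of the 26 genes 9 rose, against 28.6% of all tested genes, and 15 fell, against 53.9%. The median of the 17 enzymes was -0.44, beside -0.23 over all genes. Abca1 had 8.78, 8.62 and 9.07 RPKM at day 3, against 2.45, 2.14 and 2.85 at day 0 (log2 change 1.501 ± 0.18, limma adjusted p = 9.76e-09). Abcg1 had 10.1, 9.43 and 9.81 RPKM at day 3, against 3.86, 3.31 and 3.58 at day 0 (1.24 ± 0.08). Insig2 had 18.96, 18.6 and 20.5 RPKM at day 3, against 6.83, 7.18 and 6.85 at day 0 (1.36 ± 0.05). In all 3 genes every day 3 library exceeded every day 0 library. The deepest falls were those of Acat2, with 3.35, 3.19 and 3.18 RPKM at day 3, against 9.06, 10.2 and 9.45 at day 0 (-1.32 ± 0.07), and of Fdps, with 29.6, 27.7 and 30.4, against 69.4, 79.6 and 71.2 (-1.30 ± 0.07). Stard4 fell too (-1.11 ± 0.06). Mylip went against the other LXR targets and fell (-0.47 ± 0.10). The 5 enzymes that rose were Lss (0.47), mevalonate diphosphate decarboxylase Mvd (0.35), Msmo1 (0.35), phosphomevalonate kinase Pmvk (0.26) and the sterol dehydrogenase Nsdhl (0.20).

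In cKO the 2 exporters and both INSIG genes rose as well, and 12 of the 17 enzymes fell. Of the 26 genes 8 rose, against 30.2% of all tested genes, and 16 fell, against 50.2%. The median of the 17 enzymes was -0.48, beside -0.16 over all genes. Abca1 had 19.01, 18.6 and 15.9 RPKM at day 3, against 3.27, 2.62 and 2.45 at day 0 (log2 change 2.32 ± 0.18, limma adjusted p = 1.18e-12). Insig2 rose by 1.22 and Abcg1 by 1.23 on the log2 scale, and Insig1 had 42.8, 45.3 and 46.2 RPKM at day 3, against 30.1, 29.8 and 30.2 at day 0 (0.56 ± 0.05). None of these groups overlapped. Acat2 (-1.06), Hsd17b7 (-1.03), Stard4 (-0.96), Sqle (-0.91) and Fdps (-0.91) fell most.

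Across the 4 genotypes, 9 of the 26 genes fell in every early step, against 16.3% of all tested genes. They were Cyp51, the reductase of the final step Dhcr7, squalene synthase Fdft1, Fdps, the isomerase Idi1, mevalonate kinase Mvk, Mylip, the desaturase Sc5d and Stard4. Under quantile scaling the fall of Cyp51 in gKO no longer passed the test. Insig2 was the gene that rose in all 4 steps, as 13.7% of all tested genes did, although its rise in gWT (0.21) did not pass after quantile scaling.

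**Figure D2:**
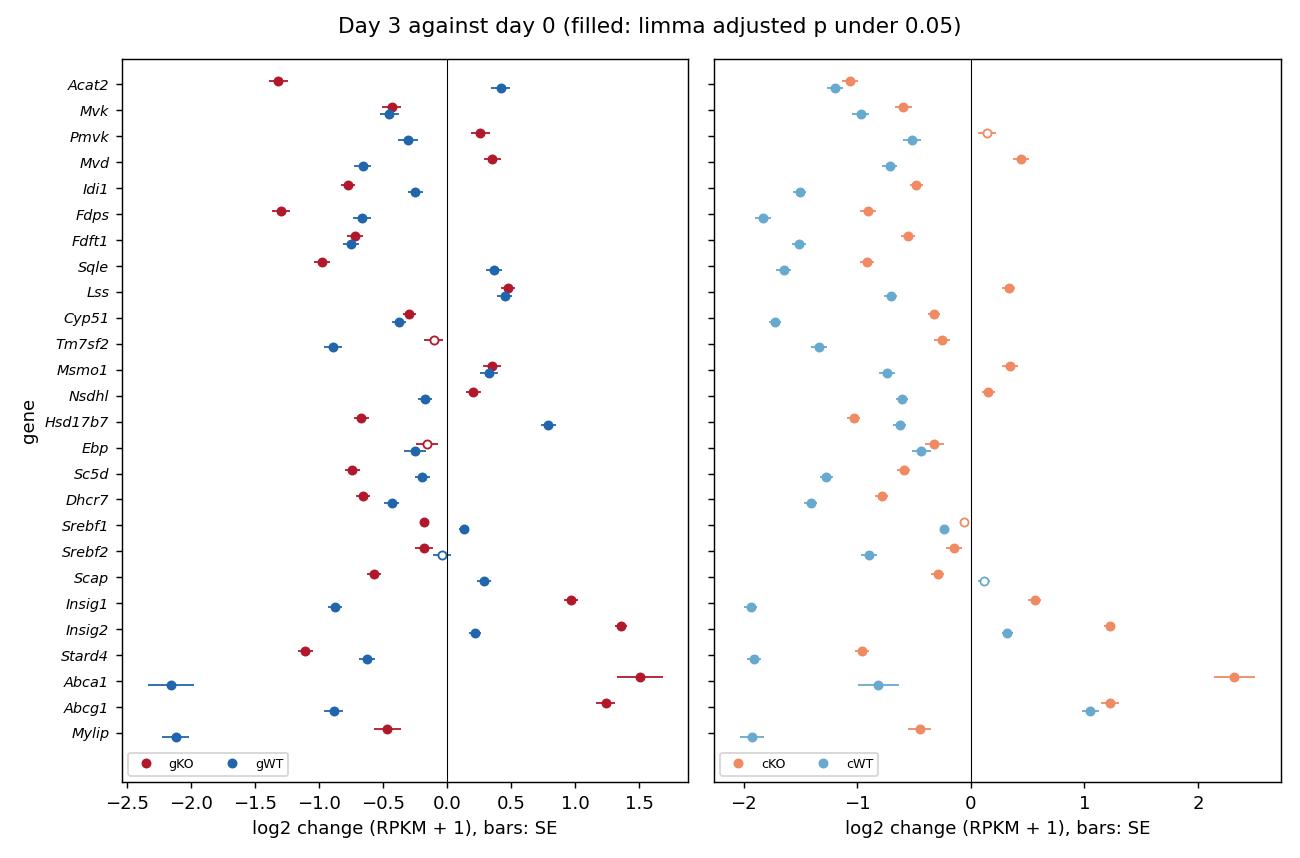
Log2 change of log2(RPKM + 1) from day 0 to day 3 for 26 sterol genes in gKO and gWT (left) and in cKO and cWT (right), with limma standard errors as bars; filled points have a limma adjusted p under 0.05. The cWT points of all 17 enzymes lie left of 0, and the Abca1 and Insig1 points lie right of 0 in gKO and cKO and left of 0 in gWT and cWT.

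The difference between genotypes in this step was tested as an interaction. For gKO against gWT, 9 of the 26 genes had a larger (more positive) step in gKO, against 32.4% of all tested genes. Another 10 had a smaller one, against 49.5%. With quantile scaling these counts were 15 and 7, beside 4995 and 4734 of all 11863 tested genes. All 3 LXR targets were among the 9, with differences of 3.66 ± 0.25 for Abca1, 2.12 ± 0.11 for Abcg1 and 1.65 ± 0.15 for Mylip on the log2 scale. Insig1 (1.84 ± 0.08) and Insig2 (1.14 ± 0.07) were there too. Acat2 (-1.73 ± 0.10), Hsd17b7 (-1.46 ± 0.08) and Sqle (-1.35 ± 0.09) had the most negative differences; all 3 rose in gWT and fell in gKO.

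For cKO against cWT, 21 of the 26 genes had a more positive step in cKO, against 30.9% of all tested genes, and 2 a more negative one, against 41.9%. Of the 17 enzymes 14 were among the first, with a median difference of 0.76, beside -0.09 over all genes. The largest differences were those of Abca1 (3.13 ± 0.25), Insig1 (2.501 ± 0.08), Mylip (1.48 ± 0.15) and Cyp51 (1.40 ± 0.07). Hsd17b7 (-0.40 ± 0.08) and Scap (-0.41 ± 0.08) went the other way. Each of these steps lies within 1 letter of the library names.

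The wild types differed from each other in the step. For cWT against gWT, 18 of the 26 genes had a more negative step in cWT, against 39.1% of all tested genes, and 2 a more positive one, against 22.1%. Of the 17 enzymes 14 were among the first, with a median difference of -1.06, beside -0.11 over all genes. Sqle, which fell in cWT and rose in gWT, differed most (-2.01 ± 0.09), and Acat2 (-1.61 ± 0.10), Hsd17b7 (-1.42 ± 0.08) and Cyp51 (-1.35 ± 0.07) followed. The genes with a more positive step were Abcg1 (1.94 ± 0.11), which rose in cWT and fell in gWT, and Abca1 (1.35 ± 0.25). These genotypes differ in the letter of their names and in sex, which cannot be told apart from the prefix.

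From day 3 to day 6, 12 of the 17 enzymes rose in gKO and in cWT. In cKO 4 rose and 4 fell, or 8 and 2 after quantile scaling. Their direction in gWT depended on the scaling too. In gKO 15 of the 26 genes rose, against 26.0% of all tested genes, and 2 fell, against 33.3%. Of the 17 enzymes 12 rose and 0 fell, with a median of 0.50, beside -0.03 over all genes. Msmo1 had 67.8, 69.1 and 62.1 RPKM at day 6, against 34.3, 35.1 and 37.7 at day 3 (log2 change 0.88 ± 0.07, limma adjusted p = 1.54e-11). Idi1 had 30.3, 31.1 and 27.3 RPKM at day 6, against 14.7, 16.2 and 16.3 at day 3 (0.87 ± 0.06). Sqle had 18.4, 19.1 and 19.6 RPKM at day 6, against 10.04, 11.2 and 11.3 at day 3 (0.76 ± 0.06). Every day 6 library exceeded every day 3 library for these enzymes. The 2 genes that fell were the LXR targets Abcg1, with 4.72, 5.35 and 5.64 RPKM at day 6, against 10.1, 9.43 and 9.81 at day 3 (-0.79 ± 0.08), and Mylip (-0.80 ± 0.10).

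In cWT 18 of the 26 genes rose, against 28.5% of all tested genes, and 4 fell, against 42.8%. Quantile scaling gave 19 rises and 0 falls, beside 3769 and 4718 of all 11863 tested genes. Of the 17 enzymes 12 rose and 2 fell, with a median of 0.44, beside -0.07 over all genes. The 4 genes that fell were Mvk (-0.18), the sterol isomerase Ebp (-0.20), Scap (-0.15) and Abcg1 (-0.23), and Acat2 (0.14), Pmvk (0.07) and Mvd (0.12) did not pass. Insig1 had 38.4, 38.3 and 40.9 RPKM at day 6, against 13.01, 15.6 and 13.4 at day 3 (1.42 ± 0.05, limma adjusted p = 1.44e-18). Idi1 had 26.4, 28.4 and 24.99 RPKM at day 6, against 11.5, 11.7 and 11.5 at day 3 (1.13 ± 0.06), and Cyp51 had 13.2, 13.2 and 12.9, against 5.63, 6.25 and 5.76 (1.03 ± 0.05). All 3 genes stood higher at day 6 with no overlap. Sc5d (0.86), Sqle (0.83) and Abca1 (0.94) rose too. The day 3 libraries carry the letter s, and of the day 6 libraries only replicate 3 does; that library alone against day 3 gave 20 genes higher and 0 lower, with log2 changes of 1.48 for Insig1, 1.04 for Idi1 and 1.02 for Cyp51. That comparison was chosen after the data had been seen, and its single library is assumed to vary like the other groups.

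In gWT 8 of the 26 genes rose, against 27.7% of all tested genes, and 12 fell, against 47.9%. After quantile scaling 11 rose and 4 fell, beside 4511 and 4435 of all 11863 tested genes. The called falls of Mvk, Idi1, Fdft1, Cyp51, Sc5d and Srebf1 turned their sign under it. Insig1 had 47.6, 48.2 and 48.9 RPKM at day 6, against 17.9, 17.4 and 20.2 at day 3 (1.34 ± 0.05, limma adjusted p = 4.21e-19), and Insig2 had 21.1, 20.9 and 21.3, against 9.08, 9.91 and 11.03 (1.01 ± 0.05). Abca1 had 12.1, 12.9 and 12.3 RPKM at day 6, against 5.03, 4.54 and 4.46 at day 3 (1.24 ± 0.18). Acat2 fell to 3.93, 3.51 and 3.34 RPKM at day 6, against 7.71, 7.25 and 7.25 at day 3 (-0.87 ± 0.07), and Sqle fell to 10.6, 9.41 and 8.56, against 18.3, 16.3 and 18.1 (-0.82 ± 0.06). None of these groups overlapped, so the INSIG genes and Abca1 stood higher, and both enzymes lower, at day 6.

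In cKO 7 of the 26 genes rose, against 20.4% of all tested genes, and 8 fell, against 36.7%. With quantile scaling 11 rose and 5 fell, beside 3819 and 3174 of all 11863 tested genes. Abca1 had 15.1, 9.80 and 10.6 RPKM at day 6, against 19.01, 18.6 and 15.9 at day 3 (-0.57 ± 0.18), and this call was lost without replicate 2 of day 6 (log2 change -0.46, limma adjusted p = 0.0559). Sc5d fell (-0.53 ± 0.06), as did Stard4 (-0.40 ± 0.06), Fdft1 (-0.37 ± 0.06) and Srebf2 (-0.30 ± 0.07), while Tm7sf2 (0.46 ± 0.07) and Dhcr7 (0.30 ± 0.06) rose. The day and the letter of the library names (t at day 3, s at day 6) cannot be told apart here.

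As interactions, 15 of the 26 genes had a more positive late step in gKO than in gWT, against 41.6% of all tested genes. Another 6 had a more negative one, against 33.2%. Quantile scaling made these counts 11 and 8, beside 4444 and 4549 of all 11863 tested genes. Sqle (1.58 ± 0.09) and Acat2 (1.5002 ± 0.10) stood at one end, and Abca1 (-1.65 ± 0.25) and Abcg1 (-1.53 ± 0.11) at the other. For cKO against cWT, 17 genes had a more negative late step, against 34.5% of all tested genes, and 3 a more positive one, against 34.6%, with Abca1 (-1.51 ± 0.25), Insig1 (-1.49 ± 0.08) and Sc5d (-1.39 ± 0.08) the most negative; the letters change within both of these steps.

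**Figure D3:**
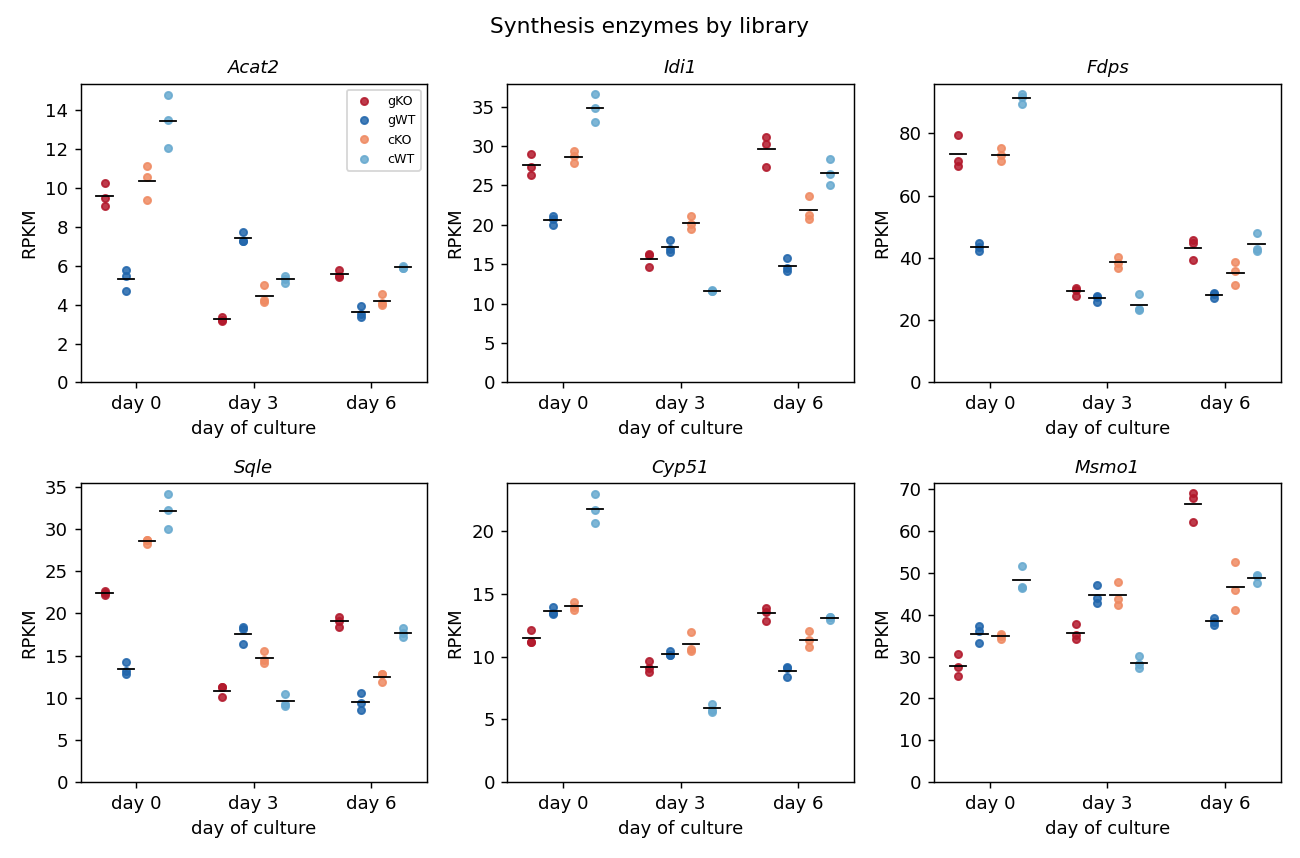
RPKM of 6 synthesis enzymes in every library by day of culture; points are libraries, coloured by genotype, and short lines are group means of 3 libraries. For Idi1, Sqle and Msmo1 the gKO points at day 6 lie above the gWT points, and the cWT points drop at day 3 and rise at day 6 for Idi1, Fdps, Sqle, Cyp51 and Msmo1.

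The second question was how the knockout and wild-type libraries differed on each day. At day 0 the LXR targets were far lower in gKO than in gWT, while the enzymes moved both ways. Of the 26 genes 11 were higher in gKO, against 49.0% of all tested genes, and 12 lower, against 29.8%. Quantile scaling made these counts 8 and 15, beside 4839 and 4418 of all 11863 tested genes. Abca1 had 2.45, 2.14 and 2.85 RPKM in gKO, against 27.9, 23.5 and 22.1 in gWT (log2 difference -2.87 ± 0.18, limma adjusted p = 8.68e-15). Abcg1 had 3.86, 3.31 and 3.58 RPKM in gKO, against 14.6, 17.02 and 15.5 in gWT (-1.86 ± 0.08). Mylip had 7.39, 7.03 and 6.97 RPKM in gKO, against 20.6, 20.3 and 22.3 in gWT (-1.44 ± 0.10). All gKO libraries lay below all gWT libraries for these 3 genes. Among the enzymes Hsd17b7 (0.80), Acat2 (0.75) and Fdps (0.74) were higher in gKO, and so was Sc5d, with 17.8, 17.2 and 18.1 RPKM, against 10.5, 9.77 and 9.83 in gWT (0.76 ± 0.06). Tm7sf2 was lower, with 3.42, 3.77 and 3.46 RPKM in gKO, against 7.53, 7.52 and 7.45 in gWT (-0.90 ± 0.07). The difference of Fdft1 (0.13) turned its sign under quantile scaling.

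At day 0 the libraries also differed in markers of other cells. The summed level of 10 neutrophil genes, Elane and Camp among them, all 10 above 1 RPKM, was 21059 to 26598 RPKM in gKO and 1893 to 2530 in gWT, and 21639 to 23000 in cKO and 3324 to 3418 in cWT. The sum of 10 macrophage genes, Adgre1 and Csf1r among them, was 639 to 692 RPKM in gKO and 5270 to 5798 in gWT, and 790.3 to 828 in cKO and 2519 to 2803 in cWT, and none of the 10 was at 0. The sum of 12 stromal genes, 6 of them above 1 RPKM in gKO and in cKO, was 79.3 to 85.1 RPKM in gKO and 5.87 to 7.15 in gWT, and 56.4 to 66.8 in cKO and 6.52 to 8.96 in cWT. The sum of 7 B cell genes was 11.3 to 15.6 RPKM in gKO and 11.7 to 17.1 in gWT, and 28.9 to 73.1 in cKO and 7.87 to 9.92 in cWT. The part of these cells in the sterol gene differences was not tested, and in bulk RNA fewer cells of a type and less RNA per cell cannot be told apart. At day 3 the neutrophil sum was 5454 to 6681 RPKM in gKO and 302 to 723 in gWT, and 4827 to 5599 in cKO and 771 to 995 in cWT, so the early step of gKO and cKO starts from and ends at higher neutrophil levels than that of gWT and cWT. The macrophage sum at day 3 was 1632 to 1721 RPKM in gKO and 1450 to 1546 in gWT, and 1454 to 1553 in cKO and 922 to 1117 in cWT. It was thus higher at day 3 than at day 0 in gKO and cKO and lower in gWT and cWT. Abca1 and Insig1 had these directions. The other LXR targets did not in every genotype. Mylip fell in gKO (-0.47) and cKO (-0.45) although the sum rose, and Abcg1 rose in cWT (1.05) although the sum fell. The part of the macrophage sum in these genes was not tested.

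In cKO against cWT at day 0 nearly all the sterol genes were lower. Of the 26 genes 2 were higher in cKO, against 36.2% of all tested genes, and 23 lower, against 31.7%, with an enzyme median of -0.46, beside 0.03 over all genes. Abca1 had 3.27, 2.62 and 2.45 RPKM in cKO, against 10.5, 13.4 and 6.99 in cWT (-1.54 ± 0.18, limma adjusted p = 1.32e-08), and the cWT libraries spread widely. Tm7sf2 had 3.03, 3.42 and 3.15 RPKM in cKO, against 8.03, 8.002 and 7.96 in cWT (-1.10 ± 0.07). Insig1 had 30.1, 29.8 and 30.2 RPKM in cKO, against 55.1, 60.3 and 54.1 in cWT (-0.89 ± 0.05). The groups were apart for all 3 genes. Mvd (-0.82), Mylip (-0.82) and Mvk (-0.72) were lower too, and the genes higher in cKO were Hsd17b7 (0.38) and Sc5d (0.29). Over both pairs of genotypes 12 genes were lower in the knockout at day 0, against 23.2% of all tested genes, and 2 higher, against 32.2%. Opposite calls were found for 8 genes, higher in gKO than in gWT and lower in cKO than in cWT, against 2.28%. The 8 were Acat2, Fdft1, Fdps, Idi1, Sqle, Srebf1, Srebf2 and Stard4; for Fdft1 the gKO difference turned under quantile scaling, and for Srebf1 it no longer passed.

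At day 3 the INSIG genes and Abca1 were higher in both knockouts. In gKO 10 of the 26 genes were higher, against 32.6% of all tested genes, and 10 lower, against 46.5%. With quantile scaling 14 were higher and 5 lower, beside 4731 and 4662 of all 11863 tested genes. Insig1 had 44.3, 44.02 and 45.8 RPKM in gKO, against 17.9, 17.4 and 20.2 in gWT (1.23 ± 0.05, limma adjusted p = 2.48e-18). Insig2 had 18.96, 18.6 and 20.5 RPKM in gKO, against 9.08, 9.91 and 11.03 in gWT (0.89 ± 0.05). Abca1 had 8.78, 8.62 and 9.07 RPKM in gKO, against 5.03, 4.54 and 4.46 in gWT (0.79 ± 0.18). Every gKO library exceeded every gWT library for these 3 genes. Acat2 was lower, with 3.35, 3.19 and 3.18 RPKM in gKO, against 7.71, 7.25 and 7.25 in gWT (-0.99 ± 0.07), and so were Sqle (-0.65 ± 0.06) and Scap (-0.57 ± 0.06). Mylip did not pass (0.21, limma adjusted p = 0.0623).

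In cKO 16 of the 26 genes were higher than in cWT at day 3, against 32.8% of all tested genes, and 6 lower, against 44.2%. Insig1 had 42.8, 45.3 and 46.2 RPKM in cKO, against 13.01, 15.6 and 13.4 in cWT (1.61 ± 0.05, limma adjusted p = 2.87e-20). Abca1 had 19.01, 18.6 and 15.9 RPKM in cKO, against 3.53, 7.07 and 5.63 in cWT (1.59 ± 0.18). Sc5d had 8.501, 9.35 and 9.93 RPKM in cKO, against 3.94, 4.56 and 4.20 in cWT (0.97 ± 0.06). The groups did not overlap for any of the 3. Cyp51 (0.80), Idi1 (0.75) and Insig2 (0.66) were higher too, whereas Scap (-0.41), Mvk (-0.35) and Abcg1 (-0.30) were lower. The sum of 10 osteoclast markers at day 3, all above 1 RPKM, was 22982 to 24053 RPKM in gKO and 3700 to 5588 in gWT, and 17391 to 17659 in cKO and 5499 to 6869 in cWT, so these markers were also higher in the knockout libraries, and their part was not tested. In both pairs 8 genes were called higher in the knockout (Abca1, Fdft1, Insig1, Insig2, Mvd, Nsdhl, Sc5d and Srebf2), against 23.1% of all tested genes. Another 4 were called lower (Acat2, Mvk, Scap and Srebf1), against 35.5%. Under quantile scaling Srebf1 turned its sign in both pairs and Mvk did not pass in gKO, which left Acat2 and Scap. The 5 genes with opposite calls were Abcg1, Cyp51, Msmo1, Sqle and Stard4, against 5.35% of all tested genes, and Abcg1, Msmo1 and Sqle had them after quantile scaling, under which the gKO difference of Cyp51 turned its sign and that of Stard4 did not pass.

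In gKO against gWT, 6 of the 26 genes were lower at day 0 and higher at day 3, against 12.7% of all tested genes, and 15 were so in cKO against cWT, against 10.4%. In the g pair they were Abca1, Abcg1, Insig1, Insig2, Mvd and Pmvk. Another 6 genes of the g pair did the reverse, against 28.9% of all tested genes, namely Acat2, Hsd17b7, Scap, Sqle, Srebf1 and Stard4, and 0 genes of the c pair did, against 17.3%. Under quantile scaling Acat2, Hsd17b7 and Sqle still did so, while the day 0 differences of Scap and Srebf1 and the day 3 difference of Stard4 did not pass and the day 3 difference of Srebf1 turned its sign.

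At day 6, 12 of the 17 synthesis enzymes were higher in gKO than in gWT, while the sterol genes were lower in cKO than in cWT about as often as all genes were. In gKO 15 of the 26 genes were higher than in gWT, against 24.7% of all tested genes, and 3 lower, against 25.3%. None of the 17 enzymes was called lower, and their median difference was 0.51, beside a median of 0 over all genes. Idi1 had 30.3, 31.1 and 27.3 RPKM in gKO, against 15.7, 14.1 and 14.5 in gWT (0.95 ± 0.06, limma adjusted p = 5.69e-14). Sqle had 18.4, 19.1 and 19.6 RPKM in gKO, against 10.6, 9.41 and 8.56 in gWT (0.93 ± 0.06). Msmo1 had 67.8, 69.1 and 62.1 RPKM in gKO, against 39.3, 38.3 and 37.5 in gWT (0.77 ± 0.07). The gKO libraries lay above all gWT libraries for these enzymes, and Sc5d (0.71), Fdps (0.60), Hsd17b7 (0.56) and Cyp51 (0.55) followed. The 3 genes lower in gKO were the 3 LXR targets. Abcg1 had 4.72, 5.35 and 5.64 RPKM in gKO, against 14.05, 13.5 and 14.6 in gWT (-1.27 ± 0.08). Abca1 had 6.10, 5.49 and 7.80 RPKM in gKO, against 12.1, 12.9 and 12.3 in gWT (-0.86 ± 0.18), and Mylip differed by -0.52 ± 0.10. The 5 enzymes that did not pass were Mvk (0.07), Pmvk (0.08), Mvd (0.05), Ebp (-0.08) and Dhcr7 (0.10). The osteoclast sum at day 6 was 26594 to 27345 RPKM in gKO and 22823 to 23891 in gWT, and the neutrophil sum 681 to 841 in gKO and 80.6 to 101 in gWT. The macrophage sum was 1507 to 1607 RPKM in gKO and 1896 to 2084 in gWT, lower in gKO as the LXR targets were, and the stromal sum 59.2 to 117 in gKO and 26.5 to 106 in gWT; their part was not tested.

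In cKO 11 of the 26 genes were lower than in cWT at day 6, against 40.4% of all tested genes, and 0 higher, against 13.2%. The share of lower genes was thus near that of all genes. With quantile scaling 7 were lower and 6 higher, beside 2756 lower and 3003 higher of all 11863 tested genes. The enzyme median was -0.19, beside -0.11 over all genes. Sqle had 12.8, 12.8 and 11.8 RPKM in cKO, against 17.6, 18.3 and 17.2 in cWT (-0.48 ± 0.06, limma adjusted p = 3.37e-07). Sc5d had 6.41, 5.80 and 6.08 RPKM in cKO, against 8.91, 8.30 and 8.30 in cWT (-0.42 ± 0.06). Acat2 had 3.96, 4.54 and 4.07 RPKM in cKO, against 5.86, 5.90 and 5.98 in cWT (-0.42 ± 0.07). Every cKO library was below every cWT library for these enzymes. Fdps (-0.33), Idi1 (-0.27) and Cyp51 (-0.19) were lower too. Against the single cWT library of letter s, the letter of all cKO libraries, 10 genes were lower and 0 higher, with that library assumed to vary like the other groups; Sqle differed by -0.44 there, while Idi1 (-0.19, limma adjusted p = 0.0675) and Cyp51 (-0.17, limma adjusted p = 0.0787) did not pass. Abca1 (0.08), Abcg1 (0.17), Mylip (0.15) and Insig1 (0.12) did not pass, although Abcg1, Mylip and Insig1 passed after quantile scaling. The osteoclast sum was 25472 to 26098 RPKM in cKO and 16082 to 18178 in cWT, the neutrophil sum 146 to 202 in cKO and 701 to 912 in cWT, the macrophage sum 1910 to 2274 in cKO and 1266 to 1331 in cWT, and the sum of the stromal genes 165 to 229 in cKO and 408 to 574 in cWT; their part was not tested. For 9 genes the g and c pairs had opposite calls at day 6 (Acat2, Cyp51, Fdft1, Fdps, Hsd17b7, Idi1, Nsdhl, Sc5d and Sqle), higher in gKO and lower in cKO, against 17.1% of all tested genes. No gene was called higher in both or lower in both, against 1.12% and 4.04% of all tested genes. Under quantile scaling the cKO differences of Cyp51, Fdft1 and Nsdhl did not pass, and Insig1 and Tm7sf2 were higher in both knockouts.

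**Figure D4:**
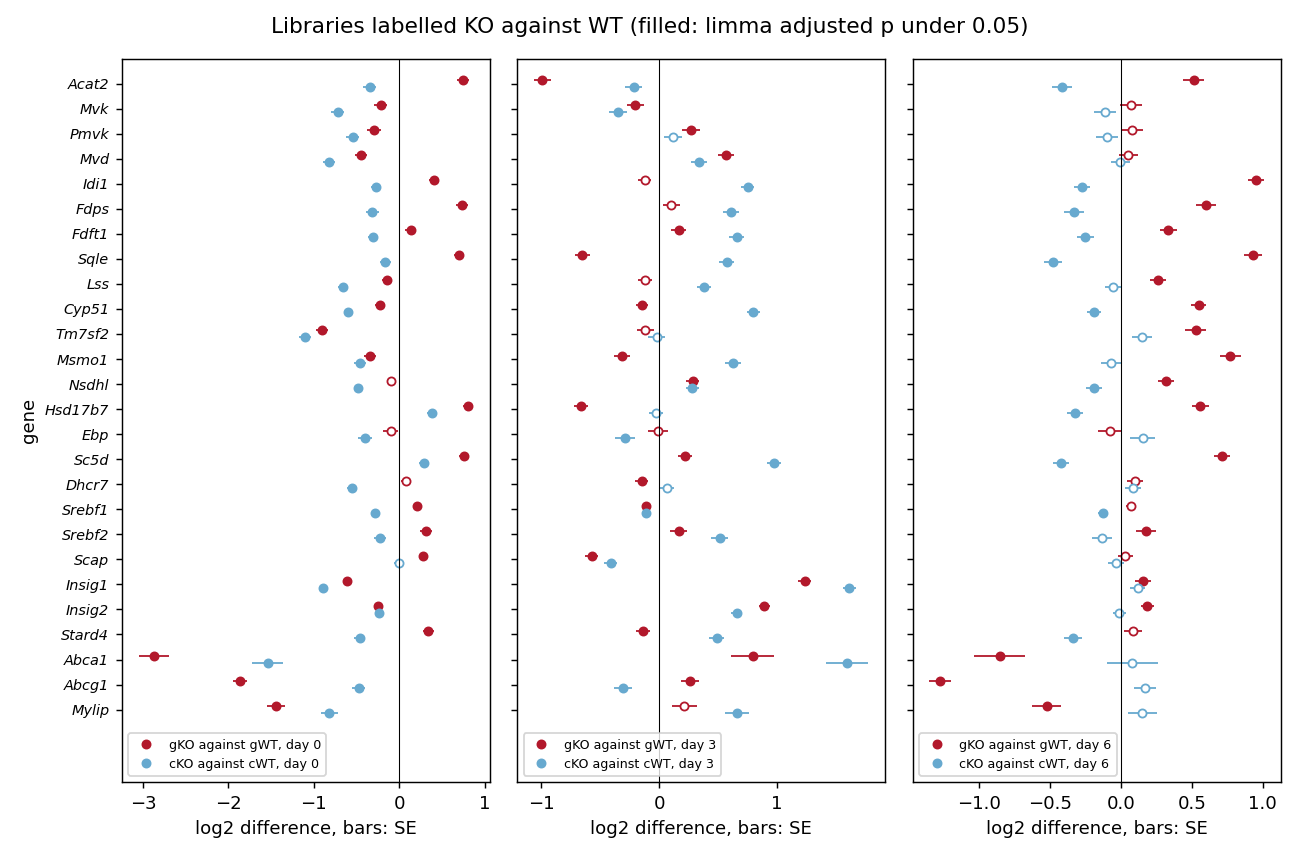
Log2 difference of log2(RPKM + 1) between knockout and wild-type libraries at days 0, 3 and 6 for 26 sterol genes, gKO against gWT and cKO against cWT, with limma standard errors as bars; filled points have a limma adjusted p under 0.05. Abca1 and Abcg1 lie far left at day 0 in the g pair, Insig1 lies far right at day 3 in both pairs, and at day 6 the filled enzyme points lie right of 0 in the g pair (12) and left of 0 in the c pair (9).

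Of the genes for the SREBP factors, Srebf1, which encodes the SREBP that favours fatty acid synthesis, stayed within -0.29 and 0.20 on the log2 scale over the 14 comparisons of groups, and 6 of its 10 calls changed sign under quantile scaling. Srebf2, the factor chiefly behind the cholesterol enzymes, had 36.6, 36.6 and 38.8 RPKM in cKO, against 22.5, 30.5 and 25.2 in cWT at day 3 (0.51 ± 0.07), and fell in cWT in the early step (-0.90 ± 0.07). The day 3 cWT libraries of Srebf2 lay below its cKO libraries without overlap.

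**Figure D5:**
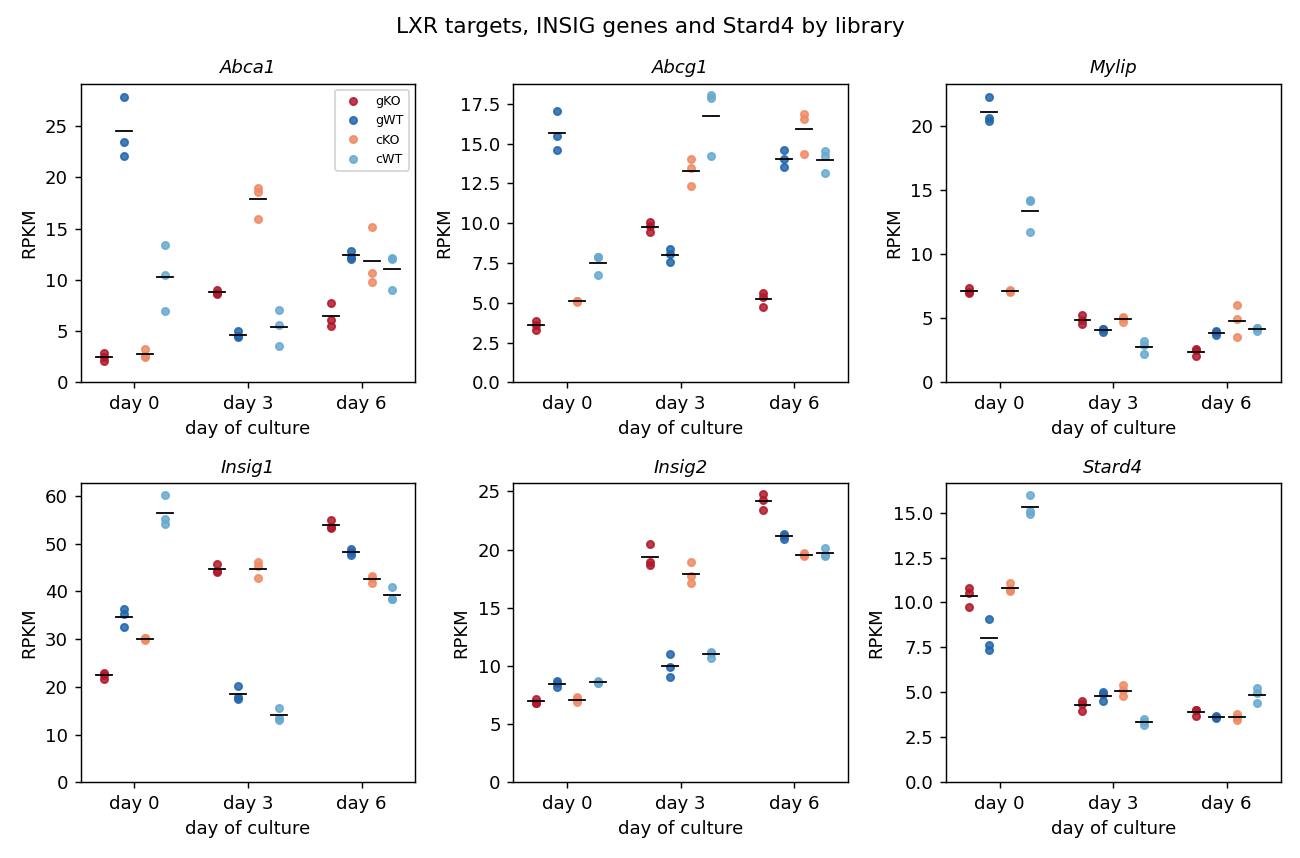
RPKM of the LXR targets Abca1, Abcg1 and Mylip, the INSIG genes and Stard4 in every library by day of culture; points are libraries, coloured by genotype, and short lines are group means of 3 libraries. At day 0 the gWT points of Abca1 stand at 22.1 to 27.9 RPKM and the gKO points at 2.14 to 2.85, and the Insig1 and Insig2 points of gKO and cKO lie above those of gWT and cWT at day 3.

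Related genes outside the 27 were counted in lists of the neighbouring pathways. Of 12 LXR receptor and lipid export genes, 1 was higher and 10 lower in gKO than in gWT at day 0, against 49.0% and 29.8% of all tested genes, and 8 higher and 3 lower at day 3, against 32.6% and 46.5%. In cKO against cWT 2 were higher and 9 lower at day 0, against 36.2% and 31.7% of all tested genes, and 7 higher and 3 lower at day 3, against 32.8% and 44.2%. Pltp, a phospholipid transfer protein, was at 8.501 ± 0.333 RPKM in gKO and 99.6 ± 10.97 in gWT at day 0 (SD, n = 3 each; log2 difference -3.40 ± 0.11), and the LXR receptor gene Nr1h3 at 2.23 ± 0.0652 in gKO and 6.73 ± 0.586 in gWT (-1.26 ± 0.11). As an interaction over the early step, 10 of these 12 genes had a more positive step in gKO than in gWT and 10 in cKO than in cWT, against 32.4% and 30.9% of all tested genes, and 0 a more negative one in either, against 49.5% and 41.9%. Apoc2, an apolipoprotein of lipid transport, was at 32.3 ± 5.29 RPKM in gKO and 2.005 ± 0.373 in gWT at day 3 (3.46 ± 0.12), and at 16.6 ± 2.18 in cKO and 1.04 ± 0.130 in cWT (3.11 ± 0.12). Of 17 tested fatty acid genes 15 fell and 2 rose in the early step of cWT, against 38.9% and 39.8% of all tested genes, with the desaturases Fads2 at -3.23 and Scd2 at -2.75, and 13 rose and 2 fell in its late step, against 28.5% and 42.8%. Fasn, the fatty acid synthase, was at 4.19 ± 0.166 RPKM in gKO and 18.3 ± 1.42 in gWT at day 3 (-1.89 ± 0.11), and at 9.04 ± 0.885 in gKO and 4.37 ± 0.382 in gWT at day 6 (0.90 ± 0.11). In the isoprenoid branch, which draws on farnesyl diphosphate, 6 of 14 genes rose and 4 fell in the early step of cWT, close to the 39.8% and 38.9% of all tested genes. Of 19 tested genes of sterol uptake, storage and the lysosome, 4 rose and 14 fell in that step, beside the same shares of all genes, and 5 were higher and 12 lower in gKO than in gWT at day 0, against 49.0% and 29.8%. Among them Cyp27a1, which makes an oxysterol, was at 0.425 ± 0.0665 RPKM in gKO and 32.3 ± 4.46 in gWT (-4.54 ± 0.12).

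The mean profile of the 17 enzymes over the 12 groups was most like that of Washc5 (Pearson r = 0.94 over 12 group means), Clcn5 (0.92) and Gak (0.90) among 9014 other genes. Pi4ka, Carhsp1, Rab1a, Homer3, Pacs2, Tubb2a and Etv5 completed the 10 nearest, the last at 0.86. The group means share libraries and genotypes, so this is a description.

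Some of the genes share exons with others in the GENCODE M21 annotation, and no source used here says whether the libraries keep strand. Fdft1 overlaps Ctsb, a lysosomal protease at 552 to 2222 RPKM by group, on the opposite strand, so reads of Ctsb can be counted in Fdft1 or lost from it. Cyp51 overlaps Akap9 and Srebf1 overlaps Rai1 on the opposite strand, as do Idi1 with Gm48574, Lss with 4930483K19Rik and Scap with 5830462I19Rik, and Tm7sf2 overlaps Vps51 and Fdps overlaps Gm43738 on the same strand. Values of these 8 genes carry that limit. At day 0 Vps51 was at 14.8 RPKM in gKO and 23.3 in gWT, and at 15.3 in cKO and 27.03 in cWT. It was thus lower in the knockout libraries, as Tm7sf2 was. In gWT it fell to 16.9 RPKM at day 3, as Tm7sf2 also fell. In gKO it went from 15.1 RPKM at day 3 to 12.5 at day 6, while Tm7sf2 rose. Its part in the Tm7sf2 values was not tested. Hmgcs1, listed at 0, overlaps Gm48342 on the opposite strand.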

How the data were processed

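Total RNA of 36 libraries in 12 groups was sequenced. The submitters' processing notes name TopHat2 2.1.0, CASAVA 1.8.4, deepTools, bcl2fastq 2.17.1 and Partek and the build mm9. Per the file headers, the authors mapped reads with TopHat and computed the deposited RPKM values with Partek; no source used here gives the annotation, counting settings or strand. The deposited sample sheet gives the authors' count of TopHat alignments per library, 34510144 to 92548145. RPKM times alignments lay within 0.1 of a whole multiple for 90.5% of 47439 low values, and counts themselves were not used, so low values carry an unknown counting error.

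RPKM values were used as deposited, as log2(RPKM + 1), which understates the changes of low genes. Genes with at least 1 RPKM in at least 3 libraries were tested, 11863 of 24950. All 36 libraries entered 1 limma model (version 3.58.1, R 4.3.3) with a mean per group, trend and robust variance moderation, and p-values were adjusted within each of the 19 comparisons by the Benjamini-Hochberg method. The steps were tested on simulated data. Python 3.11.15, pandas 2.3.3, numpy 2.4.6 and matplotlib 3.10.9 made tables and figures. The 27 genes and all lists were chosen with earlier results of these data known. Values per library are given for up to 6 genes of the largest change in each comparison (mean of 5 RPKM or more in 1 of its groups), and for genes against the majority of their role group. Alternatives were a pseudocount of 0.1, no filter, quantile scaling, a replicate block, separate fits of the g and c libraries, a plain variance model, leaving out each library and comparisons within 1 letter of the library names.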

Additional observations from a re-analysis of the deposited data

Results flagged for a closer look

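The steps between days differed between genotypes in tests of the difference itself, given here as differences of log2 changes with limma standard errors and limma adjusted p-values. From day 0 to day 3, 9 of the 26 sterol genes had a more positive and 10 a more negative step in gKO than in gWT. The shares of all tested genes were 32.4% and 49.5%, and the counts turned to 15 and 7 with quantile scaling. Abca1 differed by 3.66 ± 0.25 (adjusted p = 8.63e-14), Abcg1 by 2.12 ± 0.11 (5.84e-17) and Insig1 by 1.84 ± 0.08 (3.67e-19). In cKO against cWT 21 genes had a more positive and 2 a more negative step, against 30.9% and 41.9% of all tested genes. There Abca1 stood at 3.13 ± 0.25 (7.02e-12), Insig1 at 2.50 ± 0.08 (1.16e-20) and Mylip at 1.48 ± 0.15 (4.43e-10). In cWT against gWT 2 genes had a more positive and 18 a more negative step, against 22.1% and 39.1% of all tested genes. Here Sqle stood at -2.01 ± 0.09 (6.00e-17), Abcg1 at 1.94 ± 0.11 (9.52e-15) and Acat2 at -1.61 ± 0.10 (7.62e-14).

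From day 3 to day 6, 15 genes had a more positive and 6 a more negative step in gKO than in gWT. The shares of all tested genes were 41.6% and 33.2%, and the counts were 11 and 8 with quantile scaling. Abca1 differed by -1.65 ± 0.25 (adjusted p = 1.29e-06), Sqle by 1.58 ± 0.09 (1.15e-15) and Abcg1 by -1.53 ± 0.11 (2.68e-13). In cKO against cWT 3 genes had a more positive and 17 a more negative step, against 34.6% and 34.5% of all tested genes. There Abca1 stood at -1.51 ± 0.25 (7.87e-06), Insig1 at -1.49 ± 0.08 (5.07e-16) and Sc5d at -1.39 ± 0.08 (1.54e-14).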

How the results depend on the processing

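Of the 114 changes of the genes of largest change in each comparison, 0 turned their sign under the alternatives run on them; smaller called changes did so under quantile scaling. A pseudocount of 0.1, a plain variance model and a replicate block left all 38 counts within 1.5 times their value and all 114 gene values with their call; with the replicate block, for example, 9 genes rose and 15 fell in gKO from day 0 to day 3. Correlations between libraries did not settle whether the replicate numbers pair them. In the g libraries same-numbered pairs ran from -0.20 to 0.50. Of these 16 of 45 were over 0.1, against 14 of 90 pairs with unlike numbers. In the c libraries same-numbered pairs ran from -0.67 to 0.46, with 7 of 45 over 0.1, against 21 of 90.

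Quantile scaling moved 11 counts, and it turned the balance of higher and lower genes in 3 comparisons. From day 3 to day 6 in gWT 11 genes rose and 4 fell (8 and 12 without it), and in cKO 11 rose and 5 fell (7 and 8). The early gKO and gWT difference was more positive for 15 genes and more negative for 7 (9 and 10). The balance of all 11863 tested genes turned in these 3 comparisons as well. Of all genes 4511 rose and 4435 fell in gWT (3285 and 5680), and 3819 and 3174 in cKO (2418 and 4350). The early difference was more positive for 4995 and more negative for 4734 (3839 and 5868). From day 0 to day 3 in gWT 5 sterol genes rose (8), and from day 3 to day 6 in cWT 0 fell (4). In gKO against gWT at day 3, 5 were lower (10), and in cKO against cWT at day 6, 6 were higher (0) and 7 lower (11). More positive steps were found for 5 genes in the late cKO and cWT difference (3) and for 4 in the early cWT and gWT difference (2). Counts of all tested genes moved in the same direction in each of these cases. In cKO against cWT at day 6, for example, 3003 of all genes were higher (1569). The median log2 value of all tested genes moved with the scaling by over 0.1 in 8 of the 19 comparisons, most in the early gKO and gWT difference, where it was 0.03 (-0.22). The falls in cWT from day 3 to day 6 (4) numbered 2 with no filter, 2 with the g and c libraries fitted separately and 0 within letter s.

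Leaving out 1 library at a time gave 4 to 6 rises in cKO from day 3 to day 6 (7), with 4 without day 3 replicate 1 or day 6 replicate 2 or 3. It gave 1 to 5 falls in cWT in that step (4), with 1 or 2 without any of the day 3 replicates or day 6 replicate 1 or 2. In cKO against cWT at day 6 it gave 0 to 3 higher genes (0), with 2 without cKO replicate 1 or 2 and 3 without cWT replicate 3. The late cKO and cWT difference had 3 to 5 more positive steps (3), with 5 without day 6 cKO replicate 1 or cWT replicate 3. The cause was not tested. In cKO against cWT at day 6 Cyp51 did not pass after quantile scaling (-0.07, limma adjusted p = 0.223). Reads per gene are unknown, because the gene lengths behind the RPKM values are not given. RPKM times alignments, in reads per kilobase, was lowest for Hsd17b7 among the tested sterol genes, at 58.6. Counting error was not set beside these values.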
